A study of Mus musculus with 18 samples.

Results

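The change in skeletal muscle RNA between 20 and 28 months of age was examined in 6 RNA-seq libraries of the 18 samples in the series, the 3 libraries of 28-month (28-m) muscle against the 3 libraries of 20-month (20-m) muscle. All 13178 genes, of 23420 in the deposited table, whose normalized count averaged at least 10 over the 9 muscle RNA-seq libraries were kept, so the members are the transcriptome itself and not a selection by how genes changed. The animals were female C57BL/6J mice, an inbred laboratory strain, of 2, 20 and 28 months, with 3 mice at each age and 1 mouse behind each RNA library. No transgene, knockout or treatment was named for any group, so age was the only difference given, and the 2-month (2-m) libraries served as the young level to which a late change could return or from which it could depart. Poly-A RNA came from powdered hindlimb muscle, so each library mixes muscle fibres with vessels, nerve, fat, connective tissue and resident immune cells. The other samples of the series measured DNA methylation by capture with a methyl-CpG binding domain (MBD-seq) in muscle and splenic T cells, from DNA pooled over the 3 mice of an age.

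Adult hindlimb muscle of the mouse is built mostly of fast fibres, whose acetylcholine receptors are gathered under the motor nerve terminal. When a fibre loses its nerve or is stressed, it turns on stress genes such as Gadd45a and re-expresses regulators of muscle formation such as myogenin. Type I and type II interferons induce a shared set of genes, among them the guanylate-binding proteins and the immunity-related GTPases that act against intracellular pathogens. Muscle also holds a circadian clock, and its fuel use, glucocorticoid response and autophagy vary with feeding and the time of day. Neither feeding state nor the hour of tissue collection was named in the labels.

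Reads assigned to genes numbered 20203833 to 71115244 per library over the 9 libraries. The 8 genes that define skeletal muscle were all measured, and none was called at 28 against 20 months by limma (0 at an unadjusted p under 0.05), edgeR or DESeq2. For Ckm, muscle creatine kinase, normalized counts were 583420.0, 614690.0 and 518417 at 20 months and 559258, 570823 and 516150.0 at 28 months. The 9 T and NK cell markers were all too low to be tested, with summed normalized counts of 10.4 to 22.4 per library at 20 months and 17.1 to 28.3 at 28 months. Libraries carrying number 3 differed at every age from those numbered 1 and 2, with 58.5 to 62.1% of table reads assigned to genes against 52.3 to 56.0%, and no label named a batch. The 28-m library 2 lay apart from the other 28-m libraries on the second principal component, at -41.5 against 5.08 and -9.15. The 2-m library 1 stood apart in marrow and neutrophil genes, with summed counts of 5356 against 16.8 to 86.1 over the other 8 libraries, and this touches every comparison with 2 months. In bulk tissue, fewer cells of a type and less RNA per cell cannot be told apart.

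At 28 against 20 months, 50 of the 13178 genes had an adjusted p under 0.05 in the limma fit across all genes and are called here, 28 higher (0.212%) and 22 lower (0.167%). At an unadjusted p under 0.05 there were 1396 of the 13178 in either direction, the background for the list counts below. All 50 had 3 and 3 libraries that did not overlap, a pattern that 2302 genes (17.5% of those tested) showed in either direction. By the looser rule of a change over 2-fold with an unadjusted p under 0.05, 122 genes were higher (0.926%) and 50 lower (0.379%). The step from 2 to 20 months called far more in the same fit, 1242 genes higher (9.42%) and 939 lower (7.13%), and 28 against 2 months called 992 higher (7.53%) and 822 lower (6.24%). The early and the late step share the 20-m libraries, so a chance deviation there enters both with opposite sign. The genes called higher had a median normalized count of 578 and those called lower of 2492, against 476 for all genes tested, as counts that were not divided by gene length. The median log2 difference of all genes was -0.003, and 49.3% of genes lay above 0. By 5 equal groups of mean normalized count, the median ran from 0.10 in the lowest to -0.06 in the highest. The differences below are given against 0, so a slightly negative median of abundant genes lies near the background of its level.

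**Figure D1:**
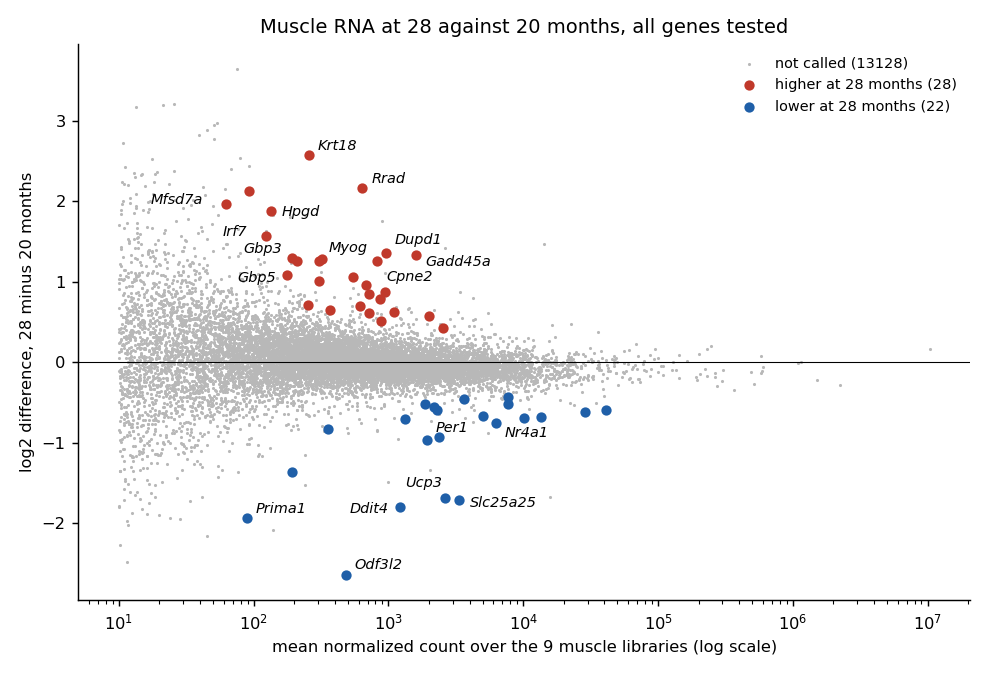
Log2 difference at 28 against 20 months (vertical axis) against the mean normalized count over the 9 muscle libraries (horizontal, log scale) for the 13178 genes tested, with the 28 genes called higher in red and the 22 called lower in blue. Calls rest on the adjusted p and not on the size of the change alone. Grey genes such as Pdk4 (-1.67) lie further out than called genes such as Usp2 (-0.43). Most of the genes called lower sit to the right, among the abundant genes.

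Alternative analyses, 21 in all, changed the scaling, the filter, the test or the libraries used. Among the 50 genes, 25 kept an adjusted p under 0.05 in at least 15 of them, and 6 in all 21. The 6 were Dupd1 and Gadd45a, which rose, and Odf3l2, Slc25a25, Ddit4 and Per1, which fell. Gadd45a (chr6:67035096-67037407, GRCm38), a growth arrest and DNA damage response gene that also rises in denervated muscle, had normalized counts of 925, 1209.8 and 1023 at 20 months and 2709.8, 2471 and 2748 at 28 months. Every 28-m library lay far above every 20-m library, and the log2 difference was 1.33 ± 0.12 (SE, n = 3 and 3, adjusted p = 3.20e-04). Its 2-m libraries, at 1319.5, 1045 and 978, were on the 20-m level (log2 difference 20 against 2 months -0.08, adjusted p = 0.703). Dupd1 (chr14:21676565-21714576), a dual-specificity phosphatase of skeletal muscle now called Dusp29, showed the same pattern, with 575, 682 and 592 at 20 months and 1634, 1434 and 1657 at 28 months. Its log2 difference was 1.35 ± 0.14 (adjusted p = 7.13e-04), and its 2-m counts of 669, 549.8 and 845 gave no early call. Both genes thus had a call in the late step with none in the early step.

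Odf3l2 (chr10:79639526-79645738), named for similarity to an outer dense fibre protein of sperm tails, had the largest fall. Its normalized counts were 216, 171 and 168 at 2 months, 1500.1, 997 and 773 at 20 months and 149.9, 168 and 185 at 28 months. It was high at 20 months alone, with a log2 difference of 2.51 for the early step and -2.64 ± 0.21 for the late step (adjusted p = 1.58e-04), and 28 against 2 months differed by -0.14 (adjusted p = 0.718). Slc25a25 (chr2:32414487-32451470), a calcium-sensitive carrier of ATP-magnesium and phosphate in the mitochondrial inner membrane, instead stood at 5265, 4323 and 5682 at 2 months, 3878, 3665 and 3892 at 20 months and 1402, 1233 and 906 at 28 months. All its 28-m libraries lay below every younger library, and the late difference was -1.71 ± 0.14 (adjusted p = 1.58e-04). Ddit4 (chr10:59949675-59951770), also called REDD1, is a stress- and glucocorticoid-induced inhibitor of mTORC1. Its counts of 2120.3, 2058 and 1715 at 20 months dropped to 474, 735 and 504 at 28 months, below the 1266, 1271 and 811 of the 2-m libraries, and it was the only gene among those turning back that was still called against 2 months (28 against 2 months -0.96, adjusted p = 0.00546). Per1 is described with the clock genes.

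**Figure D2:**
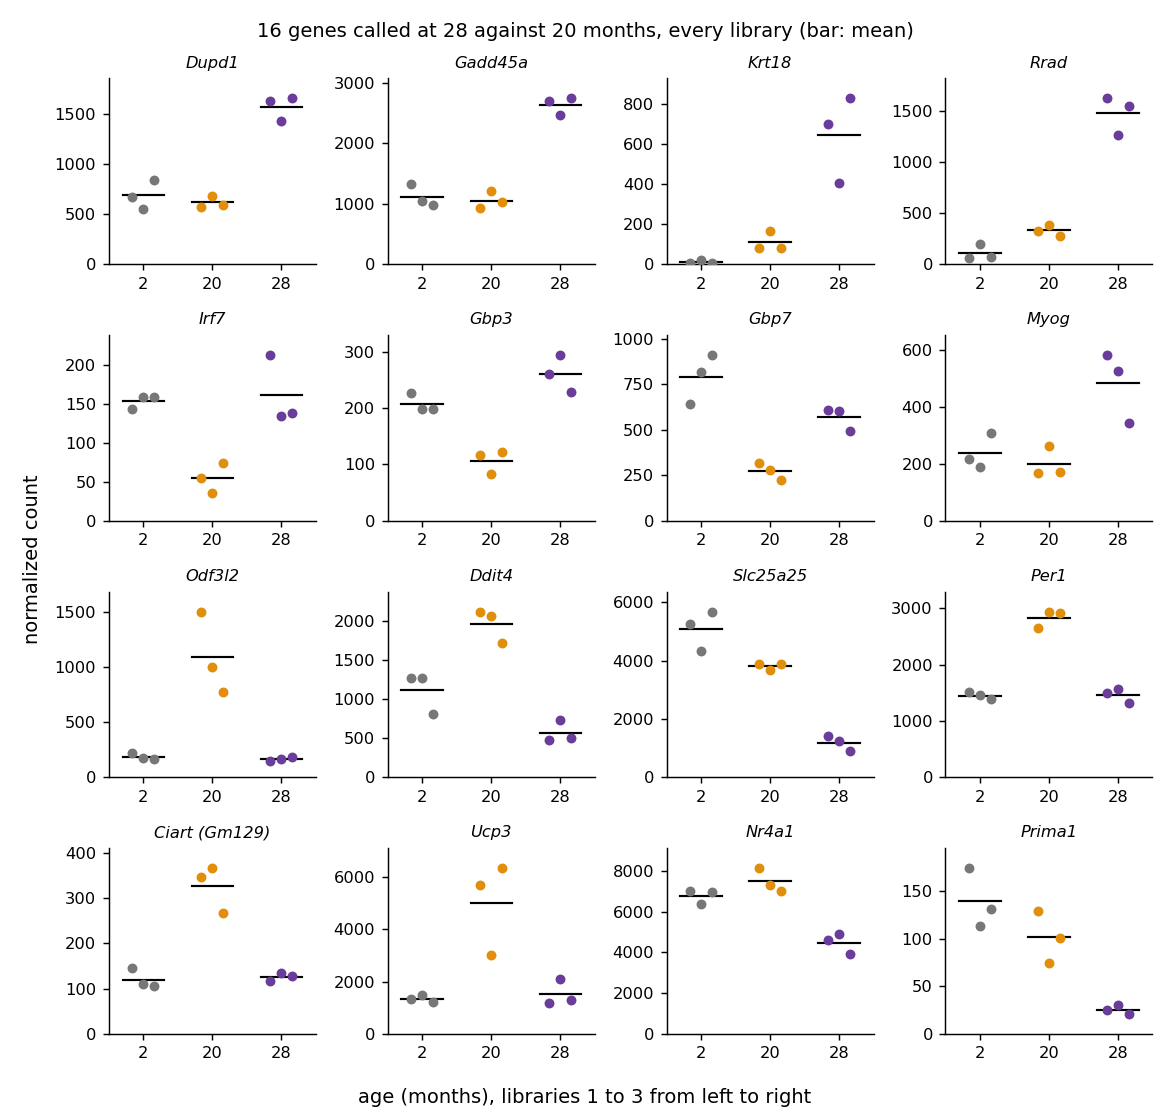
Normalized count of 16 called genes (1 panel each, vertical axis from 0) in every muscle library at 2, 20 and 28 months, with 1 point per library and a bar at the mean of 3. Gadd45a and Dupd1 stand out at 28 months only, Odf3l2, Per1, Ciart and Ucp3 peak at 20 months, and Irf7, Gbp3 and Gbp7 are lowest at 20 months.

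Interferon-inducible genes formed the largest group of rises by known function, a grouping made after the values were seen. It held 8 of the 28 genes called higher: Irf7, Gbp3, Gbp4, Gbp5, Gbp7, Iigp1, Ifitm3 and Tnfsf10. Their log2 differences ran from 0.63 to 1.58, and 7 of the 8 had been called lower at 20 against 2 months. Without the 28-m library 2, or with libraries numbered 1 and 2 alone, 0 of the 8 were called, and 1 without the 28-m library 1. All 8 were called by edgeR and by DESeq2. Irf7, a transcription factor that amplifies the interferon response, had normalized counts of 143, 159 and 159 at 2 months, 54.2, 35.4 and 74.1 at 20 months and 213, 134 and 138 at 28 months (late difference 1.58 ± 0.27, adjusted p = 0.0273). The 20-m libraries were the low ones, and the 28-m libraries lay around the 2-m level (28 against 2 months 0.04).

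The guanylate-binding proteins are GTPases that attack the membranes of intracellular microbes, and Gbp3, Gbp5 and Gbp7 lie next to each other on chromosome 3. Gbp3 (chr3:142560016-142573213) had counts of 116, 82.7 and 121 at 20 months and 260.0, 294 and 228 at 28 months, against 227, 197 and 199 at 2 months (late difference 1.29 ± 0.19, adjusted p = 0.00937). Gbp5 (chr3:142496934-142522344) had 121, 119.8 and 84.4 at 20 months and 245, 238 and 204 at 28 months (1.08 ± 0.20, adjusted p = 0.0344). Gbp7 (chr3:142530336-142550151) had 316, 278 and 223 at 20 months and 607, 604 and 494 at 28 months, under its 2-m counts of 642, 816 and 910.4 (late difference 1.07 ± 0.16, adjusted p = 0.0124). In each of these genes the 20-m libraries were lowest and did not overlap with the 28-m libraries. Gbp4 on chromosome 5 rose by 1.26 ± 0.22 and Iigp1, an immunity-related GTPase, by 1.28 ± 0.21. These families hold close copies, and reads placed at several positions were not assigned to a gene, so the split of counts among paralogs is uncertain. Tnfsf10, the death ligand TRAIL, had counts of 142, 199 and 162 at 20 months and 400.4, 352 and 272 at 28 months (1.02 ± 0.17). Ifitm3, which blocks virus entry, had 773, 919.6 and 832 at 20 months and 1209, 1468 and 1232 at 28 months (0.63 ± 0.11).

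The promoters of the 3 neighbouring genes are shown because they were called together and hold letters that match the elements through which interferons are known to act. Each is the stretch of 250 bases before a RefSeq start site on GRCm38.p6, on the plus strand, at chr3:142559794-142560043 for Gbp3, chr3:142496684-142496933 for Gbp5 and chr3:142530086-142530335 for Gbp7. Capitals mark matches, on either strand, to an interferon-stimulated response element (ISRE, here GAAA, any 2 bases, GAAA) or a gamma-activated site (GAS, TTCNNNGAA, where N is any base). The Gbp3 stretch holds a pair of overlapping ISRE matches, and the Gbp5 and Gbp7 stretches hold 1 ISRE and 2 GAS matches each. The table lists another start site for Gbp3, and the stretch before it holds no match.
Gbp3: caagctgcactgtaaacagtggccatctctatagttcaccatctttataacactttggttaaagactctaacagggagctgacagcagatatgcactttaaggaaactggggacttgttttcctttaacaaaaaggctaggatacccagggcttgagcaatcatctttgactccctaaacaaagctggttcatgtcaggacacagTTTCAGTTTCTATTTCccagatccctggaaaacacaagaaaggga
Gbp5: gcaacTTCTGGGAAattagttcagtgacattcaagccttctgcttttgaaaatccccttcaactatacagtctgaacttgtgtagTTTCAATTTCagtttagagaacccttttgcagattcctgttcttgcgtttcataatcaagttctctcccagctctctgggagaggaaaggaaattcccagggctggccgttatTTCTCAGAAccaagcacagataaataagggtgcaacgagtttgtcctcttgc
Gbp7: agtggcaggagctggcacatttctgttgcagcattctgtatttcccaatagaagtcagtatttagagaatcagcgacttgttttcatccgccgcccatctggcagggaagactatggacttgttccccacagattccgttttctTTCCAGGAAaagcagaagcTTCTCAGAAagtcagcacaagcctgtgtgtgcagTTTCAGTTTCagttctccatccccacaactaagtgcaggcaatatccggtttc
Over the 10441 tested genes with a matching entry, 3.10% held an ISRE match and 7.06% a GAS match in such a stretch before at least 1 of their start sites. Of the 8 interferon-inducible genes, 6 had an entry, of which 3 held an ISRE match and 2 a GAS match. Among all called genes with an entry, 4 of 20 higher and 0 of 17 lower genes held an ISRE match. A GAS match was present in 5 of the 20 higher and 3 of the 17 lower genes. A match is a run of letters and was not tested as a binding site.

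A list of 18 interferon response genes gave the same direction with fewer calls. All 17 members tested had log2 differences above 0, 13 at an unadjusted p under 0.05, and the median was 0.88. Over all 13178 genes tested, 49.3% lay above 0 and 1396 had an unadjusted p under 0.05 in either direction. Of the 17 list members, 2, Irf7 among them, passed the adjusted test in limma (6 in DESeq2). In the early step the median of this list was -0.80, with 7 members called lower. Oasl2, an antiviral oligoadenylate synthetase-like gene, had counts of 82.2, 79.3 and 81.2 at 20 months and 149.9, 135 and 166 at 28 months (0.88 ± 0.19, adjusted p = 0.0843). The 9 genes of class I antigen presentation were all above 0 with a median of 0.43, 7 at an unadjusted p under 0.05, and none passed the adjusted test in limma or edgeR (2 in DESeq2). B2m, the light chain of class I molecules, had 3119.7, 3599 and 3255 at 20 months and 4298, 4052 and 4348 at 28 months, with no overlap (0.35 ± 0.08, adjusted p = 0.111). H2-D1, a class I heavy chain, differed by 0.43 ± 0.11 (adjusted p = 0.152).

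Markers of immune cells were set beside these genes. The 5 class II genes had a median log2 difference of 0.46 and summed counts of 2578 to 2802 at 20 months against 2958 to 3932 at 28 months. The 11 macrophage markers had a median of 0.43 and summed counts of 3636 to 3891 at 20 months, against 3890.1 at the lowest and 5436 at the highest of the 28-m libraries. The macrophage median was -0.01 within the libraries numbered 1 and 2 and 0.62 within those numbered 3, while that of class II was 0.35 and 0.51. Of these 16 genes, none was called by limma or edgeR (3 class II and 4 macrophage genes at an unadjusted p under 0.05), and DESeq2 called 1 class II gene higher. Cd74, the class II invariant chain, had 1349, 1389 and 1277 at 20 months and 1520.0, 1835 and 1823 at 28 months, and Lyz2, lysozyme of macrophages, 1179, 1065 and 1024 at 20 months and 1385, 1487 and 1684 at 28 months. The part of these cells in the interferon-inducible rises was not tested, and the defining markers of T and NK cells were too low to test at either age. C4b, the complement component C4, and Nfkb2, the p100 subunit of NF-kappa B, were also called higher. C4b had 359, 340.1 and 469 at 2 months, 575, 552 and 548 at 20 months and 854, 1264 and 1178 at 28 months, and Nfkb2 had 419, 469 and 471 at 2 months, 769.6, 776 and 796 at 20 months and 1404, 1265 and 1385 at 28 months. Both went up at each step, unlike most of the interferon-inducible genes, with late differences of 0.95 ± 0.16 and 0.79 ± 0.09.

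The 5 genes called higher in both steps were Krt18, Rrad, Cpne2, C4b and Nfkb2. Krt18, a keratin of simple epithelia, went from counts of 4.46, 21.1 and 7.94 at 2 months through 82.2, 167 and 79.5 at 20 months to 700.2, 405 and 830.4 at 28 months. The ages did not overlap in either step, and the late difference was 2.57 ± 0.47 (adjusted p = 0.0345). Rrad, a Ras-like GTPase that inhibits voltage-gated calcium channels, had 58.0, 194 and 73.6 at 2 months, 327, 386 and 278 at 20 months and 1622, 1261 and 1551 at 28 months (late difference 2.16 ± 0.33, adjusted p = 0.0134). Cpne2, a calcium-dependent phospholipid-binding protein, rose in nearly equal log2 steps of 1.19 and 1.25, from 309.8, 284 and 251 through 641, 734 and 558 to 1782, 1291 and 1549.5.

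Myog, myogenin, the transcription factor of late muscle differentiation, had counts of 166, 262 and 172 at 20 months and 583, 525 and 342 at 28 months. Its 28-m library 3 was the lowest of its age and still above every 20-m library (late difference 1.26 ± 0.24, adjusted p = 0.0473). Among 13 tested genes of myogenesis and satellite cells Myog was the 1 called, and the list median was -0.10. Myod1, the factor that commits cells to the muscle lineage, had 539.9, 682 and 661 at 20 months and 695, 668 and 591 at 28 months (0.06 ± 0.12). The 16 genes of the denervation list had a median of 0.35, with 15 above 0 and 8 at an unadjusted p under 0.05. None was called by limma or edgeR, whereas DESeq2 and the fit with the replicate number as a block each called 4 higher. Chrna1, the alpha subunit of the muscle acetylcholine receptor, came closest, with 900.4, 1276 and 878 at 20 months and 1541, 1486 and 1840.2 at 28 months (0.69 ± 0.14, adjusted p = 0.0597). Runx1, a transcription factor induced in denervated muscle, had 165, 127 and 96.0 at 2 months, 284, 529.8 and 209 at 20 months and 1046, 863 and 706 at 28 months (1.44 ± 0.29, adjusted p = 0.0655). In Chrna1, Runx1 and Myog alike, the 20-m library 2 was the highest of its age.

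Prima1, which anchors acetylcholinesterase in membranes, fell. Its counts were 174, 113 and 131 at 2 months, 129, 74.2 and 100.2 at 20 months and 24.7, 30.4 and 20.8 at 28 months (-1.94 ± 0.28, adjusted p = 0.011). Lphn1, an adhesion receptor found at synapses and now called Adgrl1, was the 1 gene called lower in both steps, with 1729.6, 1947 and 1652 at 2 months, 1483, 1424 and 1238 at 20 months and 859.6, 795 and 889 at 28 months. Schwann cell and myelin genes were all 8 above 0 with a median of 0.43 and 4 at an unadjusted p under 0.05, but none was called by limma, edgeR or DESeq2 (1 with the replicate block). Their summed counts were 4114 to 6043 at 20 months and 5334 to 8016 at 28 months, so the ages overlap.

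Among clock genes, Per1 and Ciart fell back to their young level. Per1 (chr11:69095108-69109965), a repressor of the core clock that glucocorticoids also induce, had counts of 1507, 1457 and 1393 at 2 months, 2660.1, 2946 and 2911 at 20 months and 1489.6, 1574 and 1314 at 28 months. The 2-m and 28-m libraries were interleaved and all 20-m libraries lay far above them, with log2 differences of 0.97 for the early step, -0.96 ± 0.09 for the late step (adjusted p = 3.20e-04) and 0.00 for 28 against 2 months. Ciart, listed as Gm129 in the table, is another repressor of the clock, and it had 145, 109 and 105 at 2 months, 347, 366 and 268 at 20 months and 116, 134 and 128 at 28 months (late difference -1.36 ± 0.19, adjusted p = 0.00722). Usp2, a deubiquitinase under clock control, had 8784, 9027 and 8799 at 20 months and 6824, 6532 and 6353 at 28 months (-0.43 ± 0.07, adjusted p = 0.0141).

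The list of 19 clock genes had 2 called lower, a median of -0.15 and 6 members lower at an unadjusted p under 0.05. Per2, the paralog of Per1, had 261, 239.7 and 247 at 2 months, 448, 557 and 541 at 20 months and 357, 391 and 400.1 at 28 months, so it stayed above its young level (late difference -0.42 ± 0.13, adjusted p = 0.217). The hour at which each animal was killed was not named in the labels, and its part in these values was not tested.

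The promoter of Ciart is shown because its motif for the clock activators is repeated. It is a stretch of 250 bases before the start site, at chr3:95882229-95882478 on the minus strand. Capitals mark the E-box CACGTG, the palindrome that CLOCK and BMAL1 bind, and no match overlapped another. Ciart holds 3, at 116, 58 and 44 bases before the start. Per1 holds 1, at 166 bases before the upstream of its 2 start sites in the table, and its stretch is not printed because it lies within an exon of a longer predicted transcript.
Ciart: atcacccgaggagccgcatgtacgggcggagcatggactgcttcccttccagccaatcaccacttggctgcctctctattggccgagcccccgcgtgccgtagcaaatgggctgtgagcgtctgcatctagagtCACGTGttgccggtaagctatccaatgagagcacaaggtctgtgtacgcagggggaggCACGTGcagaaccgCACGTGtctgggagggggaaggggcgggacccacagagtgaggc
A CACGTG was present before at least 1 start site of 9.94% of the tested genes with an entry. Among the called genes with an entry it was present in 3 of 17 lower genes (Ciart, Per1 and Acvr1b) and in 0 of 20 higher genes.

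Next to Slc25a25, 6 genes of lipid, amino acid or mitochondrial metabolism were called lower, a grouping made after the values were seen. Of these 7, 1 was called without the 20-m library 1, 2 without the 20-m library 3 or the 28-m library 1, and 3 without the 28-m library 2 or 3. With each library scaled to the same sum, 2 were called. Ucp3, a muscle uncoupling protein whose RNA follows fatty acid supply, had counts of 1339.6, 1480.2 and 1221 at 2 months, 5688, 3013 and 6338 at 20 months and 1178, 2112 and 1304 at 28 months. The 20-m library 2 was the lowest of its age and the 28-m library 2 the highest of its age, and they still did not overlap (late difference -1.69 ± 0.25, adjusted p = 0.0114). All 17 genes of the fatty acid list were below 0 with a median of -0.26, 7 of them at an unadjusted p under 0.05, and Ucp3 was the 1 called (3 in DESeq2). In the early step 9 members of this list were called higher, with a median of 0.44. Pdk4, the kinase that shuts pyruvate dehydrogenase in fasting, had its lowest 20-m and highest 28-m values in the same libraries as Ucp3, with 5262, 6353 and 3345 at 2 months, 39564, 18994 and 38186 at 20 months and 6979, 16592 and 7668 at 28 months (late difference -1.67 ± 0.34, adjusted p = 0.0655). Fabp3, the fatty acid carrier of muscle, had 17016, 10991 and 17014 at 20 months and 9295, 10750.2 and 9619.8 at 28 months (-0.58 ± 0.16, adjusted p = 0.166).

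Other metabolic genes called lower split by their early step. Gpt2, mitochondrial alanine aminotransferase, had no early call and went from 11225, 11269 and 10400.1 at 20 months to 7181, 7512 and 5843 at 28 months (-0.69 ± 0.09, adjusted p = 0.00632). Gpcpd1, a glycerophosphocholine phosphodiesterase, also had none, with 15034, 16294 and 18098 at 20 months and 10205, 9382 and 11264 at 28 months (-0.68 ± 0.11). Plin4, a lipid droplet protein, had risen by 0.72 in the early step and fell by 0.52 on the log2 scale in the late step. Pla2g7, the secreted hydrolase of platelet-activating factor, had 2064, 1330.4 and 2191 at 2 months, 3017, 3845 and 3342 at 20 months and 2146, 1503 and 1740.1 at 28 months. Its late difference was -0.93 ± 0.18 (adjusted p = 0.0456 in limma and 0.0508 in edgeR), and it was called in 7 of the 21 alternatives. The lysosomal cholesterol exporter Npc1 had a late difference of -0.59 ± 0.09. The 81 genes of oxidative phosphorylation had a median of 0.03 (0.10 within the libraries numbered 1 and 2 and -0.11 within those numbered 3), and none was called by limma (1 higher and 1 lower at an unadjusted p under 0.05), edgeR or DESeq2.

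Ddit4, Ulk1, Acvr1b, Tob2 and Nr4a1, genes of growth signalling, autophagy or the immediate early response grouped after their values were seen, were called lower. Of these 5, 3 were called without any 1 of the 20-m libraries or the 28-m library 3, 2 with libraries numbered 1 and 2 alone, and 1 with each library scaled to the same sum. The list of 15 lysosome and autophagy genes had a median of -0.04, with 5 above 0 and 1 (Ulk1) called. Next to Ddit4, Ulk1, the kinase that starts autophagy, had counts of 3339, 3258 and 3203 at 2 months, 4179, 4520.2 and 4451 at 20 months and 3330.3, 3174 and 3107 at 28 months (late difference -0.45 ± 0.07, adjusted p = 0.0137). Its 28-m libraries were on the 2-m level. Acvr1b, a type I receptor for activin and myostatin, had 1876, 2094 and 2010.4 at 20 months and 1385, 1363 and 1408 at 28 months, below every younger library (-0.52 ± 0.08). Tob2, an antiproliferative protein, had 6107, 5737 and 5558 at 20 months and 3681, 3813 and 3463 at 28 months (-0.67 ± 0.08, adjusted p = 0.00186). Nr4a1, an orphan nuclear receptor induced within minutes by contraction or adrenaline, had 8132, 7321 and 7029 at 20 months and 4590.3, 4878 and 3894 at 28 months (-0.75 ± 0.09, adjusted p = 0.00273).

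The 16 genes of the atrophy and FoxO list had a median of -0.27 with 1 called higher (Gadd45a), 1 called lower (Ddit4) and 6 lower at an unadjusted p under 0.05. Trim63, the ubiquitin ligase MuRF1, had 10041, 8781 and 5959.5 at 2 months, 15963, 13358 and 12772 at 20 months and 11576, 9732 and 9314 at 28 months (-0.46 ± 0.16, adjusted p = 0.325). Klf15, a glucocorticoid-induced regulator of amino acid breakdown, had 2283, 2204 and 2256 at 20 months and 1579, 1916 and 1544 at 28 months (-0.43 ± 0.11, adjusted p = 0.15). Both lists of this kind, atrophy and fatty acid use, had their median above 0 in the early step and below 0 in the late step, which share the 20-m libraries. Of 19 immediate early genes, 1 was called by limma (Nr4a1; 4 by DESeq2) and 6 were lower at an unadjusted p under 0.05, with a median of -0.05. Dusp1, a phosphatase of MAP kinases, had 2888, 3462 and 3021 at 20 months and 2169, 2304 and 1570.3 at 28 months (-0.65 ± 0.13, adjusted p = 0.07).

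Further called genes covered cytoskeleton, membrane traffic and other roles. Tubb6, a beta-tubulin, had 818, 742 and 742 at 20 months and 1342, 1388 and 1504 at 28 months, with no overlap (0.88 ± 0.09, adjusted p = 7.13e-04). Sh3d19, an SH3 adaptor protein, rose by 0.85 ± 0.10, the small GTPases Rab13 and Rras by 0.71 ± 0.13 and 0.62 ± 0.11, and Obsl1, a relative of the sarcomeric protein obscurin, by 0.42 ± 0.08, the smallest change called. Mylk4, a muscle kinase related to myosin light chain kinase, had 30416, 32147 and 25762 at 2 months, 57103, 62298 and 50869 at 20 months and 42002, 36419 and 34178 at 28 months. Tacc2, a microtubule-associated protein, and Sorbs3, the adhesion adaptor vinexin, had late differences of -0.62 ± 0.10 and -0.56 ± 0.09. Hpgd, the enzyme that breaks down prostaglandin E2, had 132, 47.6 and 91.7 at 2 months, 54.2, 65.8 and 80.1 at 20 months and 211, 271 and 260.5 at 28 months (1.88 ± 0.32, adjusted p = 0.0227). Mfsd7a, a membrane transporter of low level, had 14.9, 30.4 and 47.4 at 20 months and 96.8, 117 and 125 at 28 months (1.97 ± 0.37). It was called in 8 of the 21 alternatives and not by edgeR (adjusted p = 0.0741). Rpl3, a protein of the large ribosomal subunit, had 1848, 1702 and 1682 at 20 months and 2659, 2675 and 2433 at 28 months (0.57 ± 0.10, adjusted p = 0.0256) and was the 1 called of 75 cytosolic ribosomal genes, of which 64 were above 0 with a median of 0.08. Rpl3l, its paralog of mature striated muscle, differed by 0.06 ± 0.08 (adjusted p = 0.849). Ankrd10 rose by 0.70 ± 0.10, and the 1 called gene with only a predicted name was Gm12185.

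By the early and the late call together, 21 of the 50 genes turned back toward the 2-m level, 6 moved further from it, and 23 had no early call. Of the 21, 13 rose then fell and 8 fell then rose, and 20 of them were not called at 28 against 2 months. The 13 that rose then fell had lost a median of 99.7% of their early log2 change, from 63.0% in Mylk4 to 215% in Ddit4, and the mean of 7 of them lay within the range of the 2-m libraries. The 8 that fell then rose had regained a median of 135%, from 69.6% in Gbp7 to 148% in Ifitm3. The 28-m mean of 0 of them lay within the range of the 2-m libraries, and 6 had passed the 2-m level. Of the 8, 7 were in the interferon-inducible group, and the other was the predicted gene Gm12185, which was placed in no group by function. Of the 23 with no early call, 20 were called at 28 against 2 months. Of 2181 genes called at 20 against 2 months, 2154 had no call in the late step, which does not show whether they turned back. Of the 1242 genes called higher at 20 months, 58.3% were also called at 28 against 2 months, and of the 939 called lower, 55.3%. A gene whose 20-m libraries deviate by chance turns back by construction, so these classes are descriptions with no test.

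**Figure D3:**
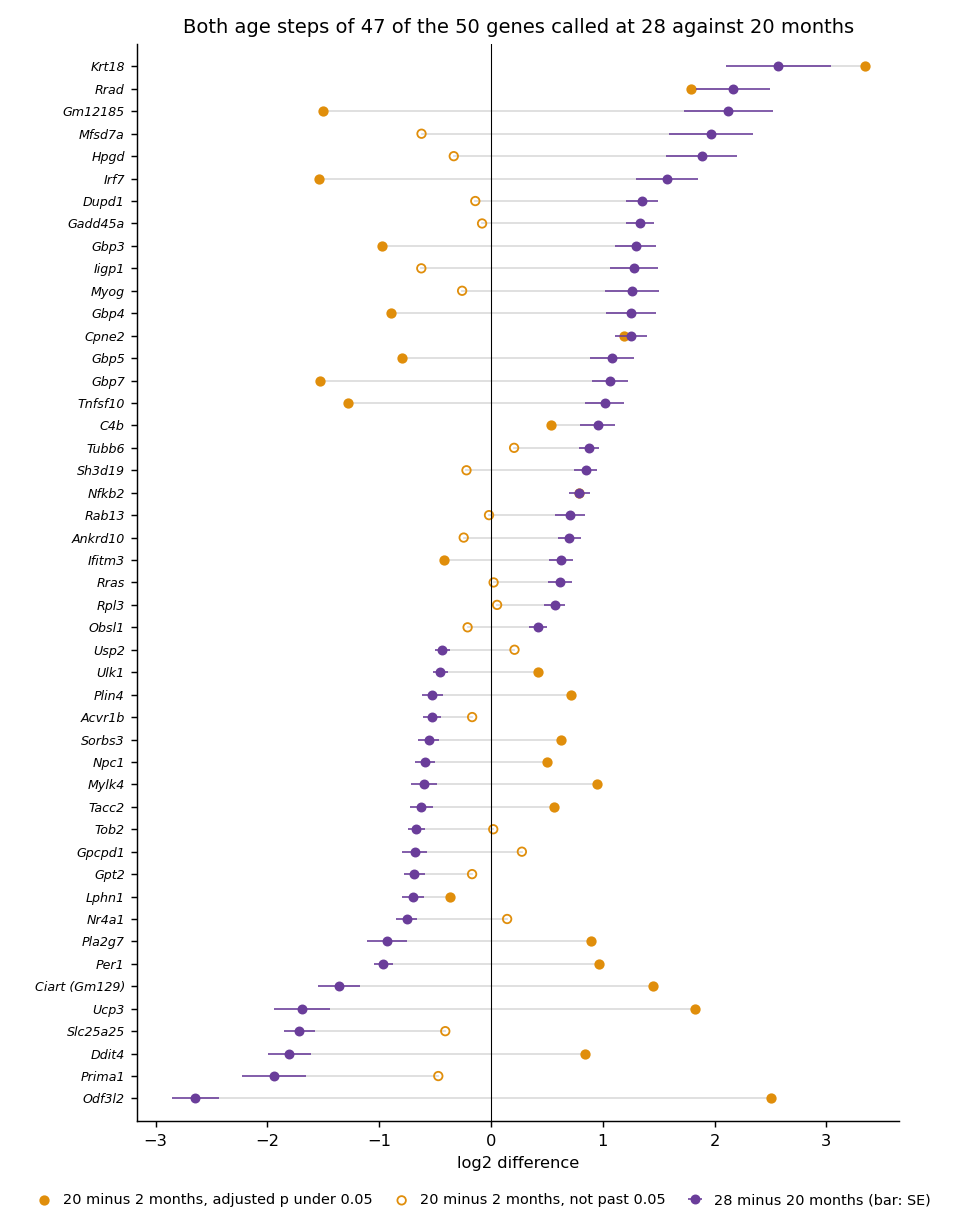
Log2 difference for the early step (orange, 20 minus 2 months, filled where the adjusted p was under 0.05) and the late step (purple, 28 minus 20 months, bars give the SE) of 47 of the 50 genes called in the late step. Both steps share the 20-m libraries. Orange and purple points lie on opposite sides of 0 for most interferon-inducible genes near the top and for Odf3l2, Ucp3, Ciart and Per1 near the bottom, and on the same side for Krt18, Rrad, Cpne2, C4b and Nfkb2, where the points of Nfkb2 coincide.

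Slow fibre and matrix lists held many calls in the early step and none in the late step. The 10 slow fibre genes had a median of 0.06 in the late step against 2.49 in the early step, in which 8 were called higher, and 0 had an unadjusted p under 0.05 in the late step. Myh7, slow myosin heavy chain, had 2773, 44700.5 and 8400.4 at 2 months, 109827, 62731 and 88434 at 20 months and 107845, 80566 and 112463 at 28 months, with overlapping 20-m and 28-m libraries (0.23 ± 0.68, adjusted p = 0.942). Tnni1, slow troponin I, differed by 0.23 ± 0.64, with 12215, 6752 and 10012 at 20 months and 11414, 10216 and 11441 at 28 months. The 12 fast fibre genes had a median of -0.13, and Myh4, the IIB fast myosin, had 2460140.0, 2527260.0 and 2100590.0 at 20 months and 2161460.0, 1664630.0 and 1990710.0 at 28 months (-0.29 ± 0.28, adjusted p = 0.765). Of 19 collagen and matrix genes, 15 had been called lower in the early step, and 17 were above 0 in the late step with a median of 0.15 (0.08 within the libraries numbered 1 and 2 and 0.29 within those numbered 3), 4 at an unadjusted p under 0.05 and no call by limma, edgeR or DESeq2. Col3a1, fibrillar collagen III, had 10899, 10941 and 15596 at 2 months, 2117, 1728 and 2046 at 20 months and 2209, 2829.8 and 3237 at 28 months, so its late difference of 0.48 (adjusted p = 0.282) left it far below the young level. Sln, sarcolipin, the inhibitor of the calcium pump SERCA, rose at each step on the count scale, from 29.0, 109 and 31.0 through 702, 565 and 548 to 1871, 1851 and 2414, and missed the threshold in the late one in limma (1.75 ± 0.37, adjusted p = 0.0751). It was called by edgeR (adjusted p = 0.00859), DESeq2 (adjusted p = 0.0192) and limma after scaling to the same sum (adjusted p = 0.00241), and its adjusted p rose to between 0.166 and 0.334 without any 1 of the 20-m or 28-m libraries.

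**Figure D4:**
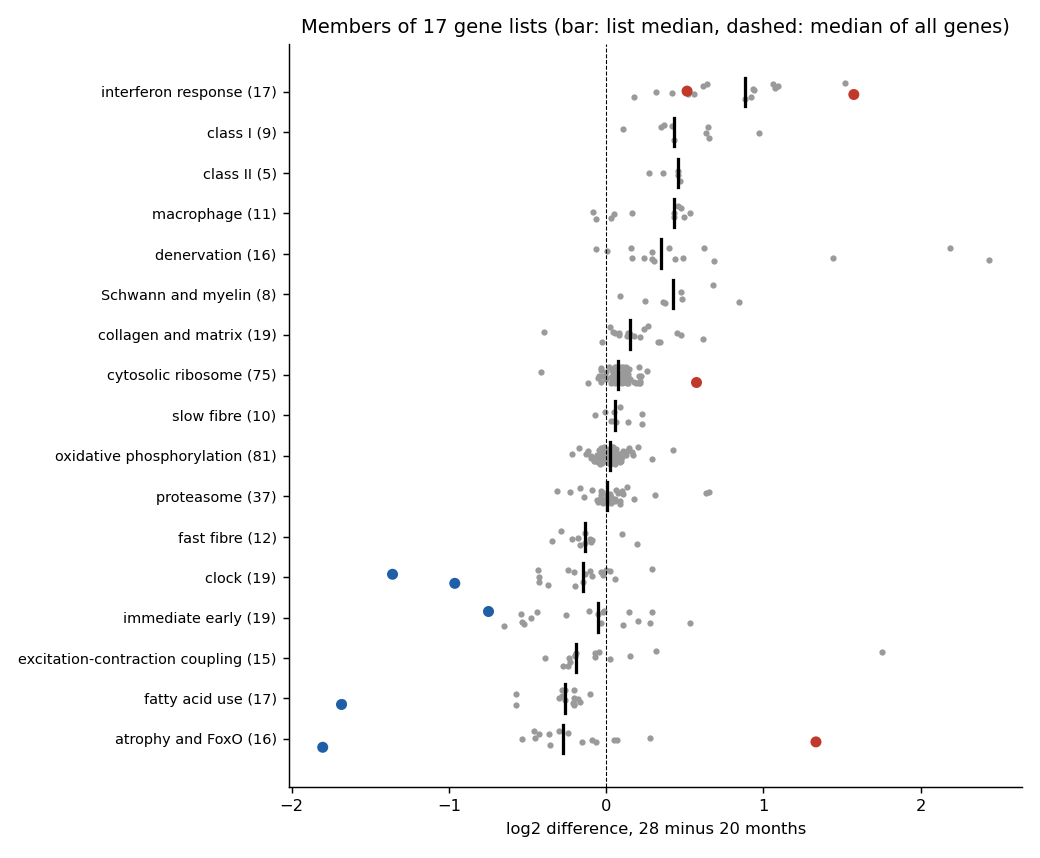
Log2 difference at 28 against 20 months of every tested member (points) of 17 gene lists, with the number tested in brackets, list medians as bars, and called members in red (higher) and blue (lower). Interferon response and class I members lie entirely above 0, fatty acid members entirely below 0, and slow fibre, oxidative phosphorylation and proteasome members centre near 0.

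Genes that repress retroelements or set DNA methylation, the study's subject, had no call by limma, edgeR or DESeq2 among 21 tested (1 lower at an unadjusted p under 0.05), with a median of -0.07. Setdb1, a histone H3K9 methyltransferase, had 699, 596 and 673 at 20 months and 622, 537 and 581 at 28 months (-0.18 ± 0.11, adjusted p = 0.627). Its partner Trim28 differed by -0.08 ± 0.09 and the RNA-binding cofactor Hnrnpk by -0.07 ± 0.07. Dnmt1, the maintenance DNA methyltransferase, had 454, 410.0 and 408 at 20 months and 427, 414 and 419 at 28 months, with groups that overlap (-0.01 ± 0.12). Tet1, a methylcytosine dioxygenase, had dropped from 363, 367 and 191 at 2 months to 57.9, 69.2 and 45.2 at 20 months, and had 60.7, 55.2 and 35.9 at 28 months (-0.19 ± 0.30).

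The study made 2 rounds of MBD capture from the same pooled DNA of each age. Promoter MBD-seq counts used here are 1 column per age that does not name its round, so with no replicate check and no test they were set beside the direction of the RNA change. Within 1000 bp of the start site the median log2 ratio of 28 to 20 months was 0.15 over the 28 genes called higher and 0.73 over the 22 called lower, against 0.32 over the 13097 genes with a start site. Within 2000 bp the medians were 0.07, 0.34 and 0.08, and with promoters of a mean of at least 5 counts per bin only (21, 15 and 9041 genes) they were 0.13, 0.21 and 0.06. With all genes split into 5 equal groups by mean normalized count, the median RNA difference ran from 0.10 in the lowest group through 0.06, 0.01 and -0.02 to -0.06 in the highest, and 16 of the 22 falls lay in the highest. In the libraries numbered 3 alone the medians of the lowest and highest groups were -0.0004 and -0.04, against 0.18 and -0.07 in those numbered 1 and 2. Medians over 5 such groups by transcript length, gene span and GC content stayed between -0.04 and 0.03. Among libraries of 1 age, the median SD per gene on the log2 scale was 0.141 at 20 months against 0.172 at 28 and 0.173 at 2 months, so the 20-m libraries were the closest to each other, and 59.1% of genes had a larger SD at 28 than at 20 months. Without the libraries numbered 2 these values were 0.116, 0.127 and 0.138, and 52.8% of genes.

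How far the calls depended on single libraries was read from the fits without each library. All 50 genes kept their direction in all 21 alternatives and within the libraries numbered 1 and 2 as well as those numbered 3. The number of calls fell to 14 without the 20-m library 1, to 18 without the 20-m library 3, to 25 without the 28-m library 1, to 28 without the 28-m library 2 and to 23 without the 28-m library 3. It rose to 88 without the 2-m library 2, which enters through the shared estimate of the spread. Of the 8 interferon-inducible genes, 0 were called without the 28-m library 2 or with libraries numbered 1 and 2 alone, 1 without the 28-m library 1, 2 without the 20-m library 1 or 3 and 4 with each library scaled to the same sum, although 8 of 8 were called by DESeq2 and with a term for the libraries numbered 3. Per1, Ddit4, Slc25a25, Odf3l2, Gadd45a and Dupd1 were called in each of these fits.

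**Figure D5:**
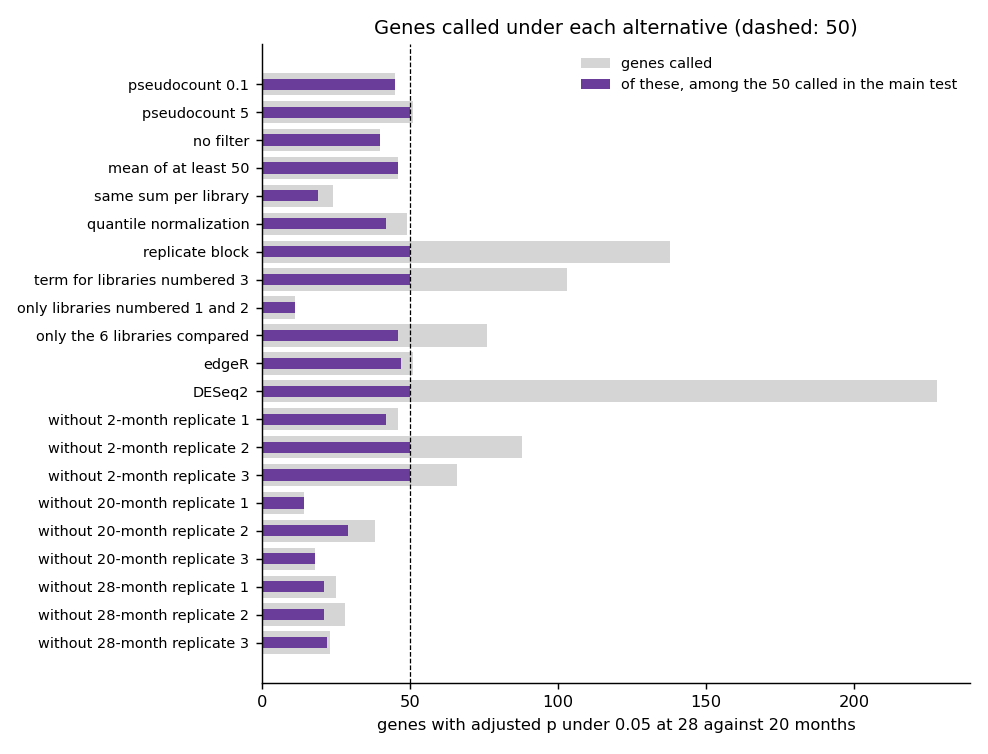
Number of genes with adjusted p under 0.05 at 28 against 20 months (grey bars) and how many of them were among the 50 called in the reported fit (purple bars) under 21 alternatives, with a dashed line at 50. Leaving out a 20-m or 28-m library lowers the count to between 14 and 38, and DESeq2 and the replicate block raise it to 228 and 138 with all 50 genes kept.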

How the data were processed

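RNA-seq was done on poly-A RNA from muscle of individual mice, with NEBNext libraries read on a NextSeq 500. Per the study's methods, reads were trimmed with Trim Galore, aligned to mm10 with Hisat2 and counted per gene with HTSeq. The submitters' processing notes name TopHat and not Hisat2, and which of these made the deposited counts is not settled here. The deposited values are counts divided by DESeq2 size factors, a normalized signal per gene and library, and every value came out as a whole number of reads (tolerance 0.001). The 5 HTSeq summary rows, 37.9 to 47.7% of the table per library, were left out. Genes with a mean of at least 10 over 9 libraries were tested on log2(value + 1) with limma 3.58.1 (trend, age as the only factor, R 4.3.3) and Benjamini-Hochberg adjustment over all genes. A fold change on this scale understates that of low genes. The deposited MBD-seq signal is normalized counts in 500-bp bins, compared as log2(value + 1).

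Recovered reads were tested with edgeR 4.0.16 and DESeq2 1.42.0 as alternatives. The fit was tested on simulated data. No label paired the samples by library number, and the reported fit used no pairing (r from -0.0401 to 0.161 between deviations of same-numbered libraries). Gene lists, members and role groups were chosen with earlier results of these data known. Named genes are the 12 largest rises and falls called, the 5 largest of each turning class, up to 4 called members of each list (otherwise the 2 of smallest p) and genes the study names; further list members and other called genes were named after their values were seen. Of the called genes, 3 are counted but not reported here. Promoters and positions are from RefSeq (GRCm38.p6), and 13137 of 13178 genes matched.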

Additional observations from a re-analysis of the deposited data

How the results depend on the processing

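All 50 called genes kept their direction under all 21 alternatives, and of the 1050 values this gives, 763 kept their side of the threshold and 287 lost the call. Of 73 further genes examined, none that was called under any alternative had another sign, and 31 values passed the threshold that had not, by DESeq2 those of Sln, Chrna1, Runx1, Cd74, B2m and H2-D1 among them. Without the filter on low values, the over 2-fold rule gave 248 higher and 119 lower genes, and 5 genes fell then rose. With a mean of at least 50 it gave 48 and 19. Scaling each library to the same sum gave 15 genes higher and 9 lower, 19 of them among the 50. Of these calls, 7 rose then fell, 4 fell then rose and 0 fell then fell, and the median of all genes moved to 0.02. Quantile normalization gave 2 that fell then fell. A term for the libraries numbered 3 gave 50 higher and 53 lower, with 34 that rose then fell, 15 that fell then rose, 13 that rose then rose and 2 that fell then fell. Libraries numbered 1 and 2 alone gave 3 higher and 8 lower, with 3 that rose then fell and 0 in each other class. The 6 libraries compared, fitted alone, gave 37 lower. DESeq2 gave 123 higher and 105 lower, with 58 that rose then fell, 36 that fell then rose, 25 that rose then rose and 5 that fell then fell, and edgeR gave 51 calls, 47 of them among the 50. Why these counts differ was not tested, beyond the smaller number of libraries in some.

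The library numbers did not pair the samples by design, since deviations correlated over 0.1 for number 3 alone. With the replicate block there were 64 higher and 74 lower genes, all 50 among them, with 50 that rose then fell, 20 that fell then rose, 15 that rose then rose and 4 that fell then fell.

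Leaving out 1 library at a time gave 8 to 50 genes higher and 6 to 38 lower, and by the over 2-fold rule 99 to 188 higher and 41 to 90 lower. The classes ranged from 2 to 23 (rose then fell), 0 to 10 (fell then rose), 2 to 9 (rose then rose) and 0 to 2 (fell then fell). Without the 28-m library 2, the count over 2-fold and lower was 90 and none fell then rose. Without the 20-m library 3, the count over 2-fold and higher was 188. With 3 mice per age, an exact permutation test of a single gene could not go below p = 0.1, and the library numbers may stand for differences between preparations that no label names.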

Other observations

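Several genes of fat cells and lipid synthesis, such as Cfd and Fasn, lay above their 20-m level in all 28-m libraries without passing the adjusted test in limma, and were picked out after their values were seen. Of 11 adipocyte markers, 7 were above 0 and 4 below (lowest -1.16), with a median log2 difference of 0.61 (0.30 within the libraries numbered 1 and 2 and 0.99 within those numbered 3), and 7 had been called lower in the early step. DESeq2 called 1 of the 11 higher and limma and edgeR called none higher. Their summed counts overlapped, at 15616 to 18188 over the 20-m libraries and 13579 to 17803 over the 28-m libraries. Cfd, the adipocyte protease adipsin, had normalized counts of 3056, 1026 and 1585 at 2 months, 319, 245 and 292 at 20 months and 385, 758 and 791 at 28 months (1.11 ± 0.34, adjusted p = 0.236). Fasn, fatty acid synthase, had 7063, 2571 and 7551 at 2 months, 516, 606 and 537 at 20 months and 987, 1161 and 2784 at 28 months (1.41 ± 0.39, adjusted p = 0.174), so that its 28-m libraries stayed below most of the 2-m libraries. Plin4, the 1 called marker of this list, moved the other way in both steps.

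Actc1, the cardiac actin of developing muscle, had 35874, 11648 and 59450.2 at 2 months, 1806, 1625 and 1944 at 20 months and 4533, 5045 and 5315 at 28 months (1.47 ± 0.40, adjusted p = 0.163). Cd274, the immune checkpoint ligand PD-L1, had 157, 135 and 98.1 at 20 months and 338, 384 and 211 at 28 months, with no overlap (1.23 ± 0.24, adjusted p = 0.0559). All 6 tendon genes tested were below 0, with a median of -0.45 (-0.54 within the libraries numbered 1 and 2 and -0.11 within those numbered 3, where 3 of the 6 were above 0), and none was called by limma (1 at an unadjusted p under 0.05), edgeR or DESeq2.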
